A study of Mus musculus with 8 samples.

Results

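Peroxisome proliferator-activated receptors (PPARs) are nuclear receptors that bind fatty acids and their derivatives and, as partners of the retinoid X receptors, switch on genes for the handling of lipid. The 9 mouse genes described here are 2 of the receptors, Pparg and Ppard, and 7 genes known to respond to PPARs or to lipid load, Angptl4, Plin2, Pdk4, Cpt1a, Cd36, Fabp4 and Hilpda. They were chosen from these measurements, because the rise of Angptl4 was among the largest of the series, so their values in the comparison of the groups are a description and carry no test. All 9 were found by gene identifier among the 55487 identifiers of the count table, and all 9 were among the 15411 genes that passed the filter on low counts.

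Transcripts were counted in 4 libraries of untreated BMDC and in 4 libraries of BMDC-fer. BMDC are wild-type dendritic cells grown for 10 days from the bone marrow of immunocompetent C57/bl6 mice in GM-CSF. The study's methods give 20 ng/ml GM-CSF and female C57BL/6J mice 6 to 8 weeks old. BMDC-fer are BMDC of the same kind that were sorted after 4 h of co-culture for carrying fluorescent cargo from Jurkat cells, a human T-cell leukemia line killed beforehand with 0.5 µM ML162, a GPX4 inhibitor that triggers ferroptosis, for 14 h. Ferroptosis is a form of death driven by the peroxidation of membrane lipids. The untreated BMDC had no co-culture, so co-culture, uptake and the sort cannot be told apart in the comparison. The study calls the 4 samples of each group independently collected.

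Total counts lay between 39326672 and 50532209 per library. Values are CPM (counts scaled to library size) after TMM normalization, and calls needed both an adjusted p at or below 0.05 and a log2 fold change of at least 0.58 in either direction (quasi-likelihood F-test of edgeR, Benjamini-Hochberg adjusted over every tested gene). By this rule 9.38% of the tested genes were called, 3.47% higher and 5.91% lower in BMDC-fer, and in 11.3% every BMDC-fer library lay above every BMDC library. Replicates 1 and 2 of each group stood together and away from replicates 3 and 4, a split that the labels do not explain and that was seen in these libraries. The size of the BMDC-fer effect differed between these pairs of replicates for 37.8% of the tested genes (edgeR interaction term, adjusted p at or below 0.05). Each of the 9 genes is therefore also given within the pairs. Itgax, the CD11c marker of dendritic cells, was at a mean of 1111 CPM in BMDC, against 1033 CPM in BMDC-fer. Of the genes that define conventional dendritic cells, Flt3 was at 3.92 CPM in BMDC, against 0.229 CPM in BMDC-fer, and Zbtb46 was at 19.9 and 4.87 CPM. By the rule above Flt3 was called lower and Zbtb46 was not called. Zbtb46 spanned 6.29 to 42.7 CPM in BMDC and 1.62 to 11.5 CPM in BMDC-fer, ranges that overlapped.

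PPARs and the retinoid X receptors bind paired copies of the hexamer AGGTCA spaced by 1 base. The hypoxia-inducible factors (HIF) bind a short core, of which only the form ACGTG was searched and is called the HIF core here. RefSeq start windows of 300 bases (250 before and 50 after the start, GRCm38.p6) were found for 7 of the 9 genes, 10 windows in all, and none was found for Angptl4 and Fabp4. The following 4 windows belong to the 3 genes with a window that were higher in BMDC-fer than in BMDC at all 4 replicate numbers, and to Hilpda, whose values had opposite signs in the pairs. Of the 2 Hilpda windows the one with a motif in these letters is shown. Each is written 5′ to 3′ on the strand of its gene, and capitals mark the hexamer or the HIF core on either strand.
Plin2, chr4:86670010-86670309, minus strand: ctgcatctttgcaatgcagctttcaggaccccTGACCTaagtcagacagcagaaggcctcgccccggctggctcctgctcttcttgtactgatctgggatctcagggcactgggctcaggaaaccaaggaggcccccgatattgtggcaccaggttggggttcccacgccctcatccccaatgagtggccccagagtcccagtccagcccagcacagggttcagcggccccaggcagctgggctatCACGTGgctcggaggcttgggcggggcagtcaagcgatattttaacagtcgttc
Cpt1a, chr19:3323051-3323350, plus strand: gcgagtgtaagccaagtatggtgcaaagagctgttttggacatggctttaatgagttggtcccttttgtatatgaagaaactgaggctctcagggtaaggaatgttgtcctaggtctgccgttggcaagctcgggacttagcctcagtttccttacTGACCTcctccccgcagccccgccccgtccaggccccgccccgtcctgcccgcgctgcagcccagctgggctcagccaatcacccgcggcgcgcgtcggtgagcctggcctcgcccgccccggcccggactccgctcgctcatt
Cd36, chr5:17835847-17836146, minus strand: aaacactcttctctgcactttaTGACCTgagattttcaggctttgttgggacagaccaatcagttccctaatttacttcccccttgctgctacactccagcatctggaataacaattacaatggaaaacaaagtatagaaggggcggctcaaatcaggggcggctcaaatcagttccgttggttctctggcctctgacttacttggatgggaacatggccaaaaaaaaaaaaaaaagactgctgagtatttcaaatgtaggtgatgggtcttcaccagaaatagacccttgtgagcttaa
Hilpda, chr6:29272376-29272675, plus strand: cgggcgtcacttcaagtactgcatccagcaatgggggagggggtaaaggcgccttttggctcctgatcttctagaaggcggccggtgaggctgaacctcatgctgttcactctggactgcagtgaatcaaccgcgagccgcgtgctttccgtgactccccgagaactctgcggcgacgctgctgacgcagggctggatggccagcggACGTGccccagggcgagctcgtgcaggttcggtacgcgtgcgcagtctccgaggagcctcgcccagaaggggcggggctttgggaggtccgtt
The Plin2 window holds 1 hexamer and the HIF core as the palindrome CACGTG, which matches on both strands. The Cpt1a and Cd36 windows hold 1 hexamer each, and the Hilpda window shown holds 1 HIF core and 0 hexamers. The other Hilpda window, which starts upstream of it, holds neither AGGTCA nor ACGTG on either strand, and other forms of the core were not searched. Of the 3 Pparg windows, not shown, 2 hold a hexamer. The hexamer was in 5 of the 10 windows and in 16.3% of the 32851 mouse windows, the core in 3 of 10 and in 19.6%. The paired element with exactly these letters was in 0 of the 10 windows and in 0.0396% of all windows. These matches describe letters and not binding. Some of the 10 windows belong to the same gene and the genes were picked, so nothing is read from these shares.

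Of the 9 genes, Angptl4, Plin2 and Cpt1a were called, all 3 higher in BMDC-fer, and 0 were called lower. In the same 3 genes every BMDC-fer library lay above every BMDC library. Because the rule rests on this contrast, nothing is read from these counts beside the 9.38% and 11.3% of all genes. The median log2 fold change of the 9 genes was 0.63, and that of all tested genes was 0.00069. For the same reason nothing is read from this difference.

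**Figure D1:**
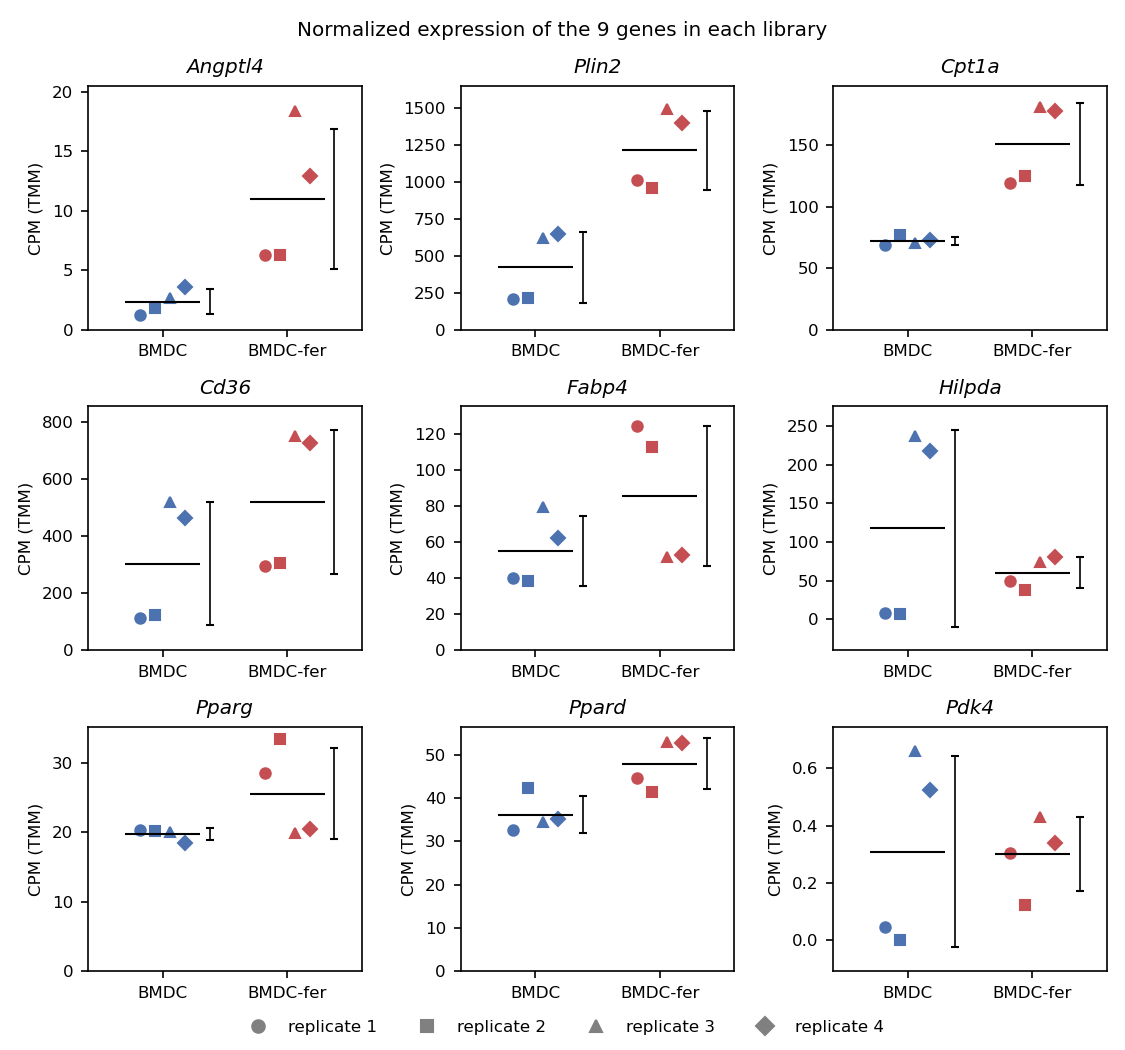
Normalized expression (CPM after TMM, linear axes with a scale for each gene) of the 9 genes in the 4 BMDC and 4 BMDC-fer libraries, with the shape of the point giving the replicate number, a line at the group mean and a bar of ± 1 SD. The groups do not overlap for Angptl4, Plin2 and Cpt1a, while Hilpda spans 6.95 to 237 CPM within BMDC.

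Angptl4 encodes a secreted inhibitor of lipoprotein lipase and lies at chr17:33773750-33781830 on the minus strand (GENCODE M21, GRCm38). It was at 1.24, 1.87, 2.67 and 3.64 CPM in BMDC replicates 1 to 4 and at 6.27, 6.29, 18.4 and 12.9 CPM in BMDC-fer replicates 1 to 4. Every BMDC-fer library was above the highest BMDC library, and within each group replicates 3 and 4 were above replicates 1 and 2. Mean expression was 2.36 ± 1.04 CPM without and 10.97 ± 5.87 CPM with cargo (SD, n = 4 each). That is a log2 fold change of 2.22 (SE 0.46), or 4.65-fold, which ranked 10 among the tested genes. These rest on few reads, 54 to 146 counts in BMDC and 257 to 769 in BMDC-fer. The ratio of same-numbered libraries was positive in all 4 numbers, from 1.72 to 2.76 on the log2 scale. Angptl4 was 1 of the 2 genes whose effect did not pass the test of a difference between the pairs, with a log2 fold change of 2.00 (SE 0.26) in replicates 1 and 2 and of 2.31 (SE 0.25) in replicates 3 and 4 (difference 0.31, SE 0.35, adjusted p = 0.526, edgeR interaction term). Without BMDC-fer replicate 4 Angptl4 was no longer called, and over the 8 fits with a library left out its log2 fold change was between 1.85 and 2.50.

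Plin2 encodes perilipin-2, a coat protein of lipid droplets, and lies at chr4:86648386-86670060 on the minus strand. It was at 210, 215, 618 and 644 CPM in BMDC and at 1013, 959, 1489 and 1393 CPM in BMDC-fer replicates 1 to 4. The lowest BMDC-fer library was above the highest BMDC library, and BMDC replicates 3 and 4 stood closer to BMDC-fer than replicates 1 and 2 did. The means were 422 ± 242 CPM and 1213 ± 266 CPM (SD, n = 4 each). That is a log2 fold change of 1.52 (SE 0.41), or 2.88-fold. In absolute terms Plin2 had the highest CPM of the 9 genes in both groups. Its log2 fold change was 2.21 (SE 0.084) in replicates 1 and 2 and 1.19 (SE 0.081) in replicates 3 and 4, and this difference passed the test (-1.02, SE 0.11, adjusted p = 0.000336, edgeR interaction term). Plin2 was called in 1 of 8 fits with a library left out, the one without BMDC replicate 4, while its log2 fold change stayed between 1.31 and 1.81.

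Cpt1a encodes the carnitine palmitoyltransferase that controls the entry of long-chain fatty acids into mitochondria, and lies at chr19:3322334-3385733 on the plus strand. It was at 68.8, 76.6, 70.4 and 73.0 CPM in BMDC and at 118.8, 124.9, 181 and 178 CPM in BMDC-fer replicates 1 to 4. The BMDC libraries were close together, and BMDC-fer replicates 3 and 4 were the highest. The means were 72.2 ± 3.40 CPM and 150.6 ± 33.3 CPM (SD, n = 4 each). That is a log2 fold change of 1.06 (SE 0.16), or 2.09-fold. Opposite to Plin2, the effect on Cpt1a was smaller in replicates 1 and 2 (0.74, SE 0.078) than in replicates 3 and 4 (1.32, SE 0.078), and the difference of 0.58 (SE 0.11) passed the test (adjusted p = 0.00362, edgeR interaction term). Cpt1a was called in all 8 fits with a library left out.

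Cd36 encodes a scavenger receptor that takes up fatty acids and oxidized lipoproteins, and lies at chr5:17781690-17888801 on the minus strand. It was at 112, 124, 518 and 462 CPM in BMDC and at 296, 306, 751 and 725 CPM in BMDC-fer replicates 1 to 4. The groups overlapped, since BMDC replicates 3 and 4 were above BMDC-fer replicates 1 and 2, but each BMDC-fer library was above the BMDC library of its own number. The means were 304 ± 216 CPM and 519 ± 253 CPM (SD, n = 4 each), and the log2 fold change was 0.77 (SE 0.57), not called. In a fit with the replicate number as a block (the replicate block), which pairs same-numbered libraries, Cd36 was called, with a log2 fold change of 0.97. No label states that same-numbered libraries belong together. The values within the pairs were 1.35 (SE 0.090) in replicates 1 and 2 and 0.59 (SE 0.089) in replicates 3 and 4, a difference of -0.76 (SE 0.13, adjusted p = 0.00200, edgeR interaction term).

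Fabp4 encodes an intracellular fatty acid carrier known from adipocytes and macrophages, and lies at chr3:10204088-10208576 on the minus strand. It was at 40.1, 38.5, 79.3 and 62.6 CPM in BMDC and at 124.5, 112.9, 51.8 and 52.8 CPM in BMDC-fer replicates 1 to 4. BMDC-fer replicates 1 and 2 held the highest values of the 8 libraries, and BMDC-fer replicates 3 and 4 were below BMDC replicates 3 and 4. The means were 55.1 ± 19.5 CPM and 85.5 ± 38.6 CPM (SD, n = 4 each), and the log2 fold change of 0.63 (SE 0.36) was not called. Its values of 1.60 (SE 0.11) in replicates 1 and 2 and -0.44 (SE 0.11) in replicates 3 and 4 had opposite signs (difference -2.04, SE 0.16, adjusted p = 7.6e-05, edgeR interaction term).

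Hilpda, a small droplet protein that inhibits the lipase ATGL and is known as a target of both PPARs and HIF, lies at chr6:29272488-29275446 on the plus strand. It was at 7.77, 6.95, 237 and 218 CPM in BMDC and at 49.1, 37.8, 73.6 and 80.1 CPM in BMDC-fer replicates 1 to 4. The 4 BMDC-fer libraries lay between the low and the high pair of BMDC libraries. The means were 118 ± 127 CPM and 60.1 ± 19.996 CPM (SD, n = 4 each), and the log2 fold change of -0.97 (SE 1.03) was not called. Within replicates 1 and 2 it was 2.56 (SE 0.14) and within replicates 3 and 4 it was -1.57 (SE 0.12), the widest difference of the 9 genes (-4.13, SE 0.18, adjusted p = 1.6e-05, edgeR interaction term). With the replicate block the log2 fold change of Hilpda was 0.45, of the opposite sign to the value without it, and in neither fit was the gene called.

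Pdk4 encodes a kinase that inhibits pyruvate dehydrogenase and so spares glucose when fatty acids are burned, and lies at chr6:5483351-5496309 on the minus strand. It was close to the limit of these data, with 2, 0, 28 and 21 counts in BMDC and 15, 5, 18 and 13 counts in BMDC-fer replicates 1 to 4. The groups overlapped, and BMDC replicates 1 and 2 were under a floor of 3 counts. Such a floor speaks of counting error alone, because amplified reads are not separate molecules. The means were 0.308 ± 0.334 CPM and 0.299 ± 0.130 CPM (SD, n = 4 each), and the log2 fold change was -0.02 (SE 0.95), not called. A difference between the pairs passed the test for Pdk4 too (-3.76, SE 1.06, adjusted p = 0.0212, edgeR interaction term), but its size depends on the prior count, since the low pair held 2 and 0 counts.

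Neither of the 2 receptors was called. Pparg, at chr6:115360951-115490399 on the plus strand, was at 20.3, 20.2, 20.01 and 18.4 CPM in BMDC and at 28.5, 33.4, 19.9 and 20.5 CPM in BMDC-fer replicates 1 to 4. Only BMDC-fer replicates 1 and 2 stood clearly above the BMDC libraries. The means were 19.7 ± 0.883 CPM and 25.6 ± 6.52 CPM (SD, n = 4 each), and the log2 fold change of 0.37 (SE 0.18) was not called. It was 0.61 (SE 0.10) in replicates 1 and 2 and 0.07 (SE 0.10) in replicates 3 and 4 (difference -0.54, SE 0.15, adjusted p = 0.0190, edgeR interaction term). Ppard, at chr17:28232700-28301474 on the plus strand, was at 32.7, 42.5, 34.5 and 35.1 CPM in BMDC and at 44.6, 41.5, 53.0 and 52.9 CPM in BMDC-fer replicates 1 to 4. BMDC-fer replicate 2 was below BMDC replicate 2, and the other BMDC-fer libraries were above all BMDC libraries. The means of Ppard were 36.2 ± 4.30 CPM and 48.0 ± 5.86 CPM (SD, n = 4 each), and the log2 fold change was 0.41 (SE 0.13), under the 0.58 of the call. Its difference between the pairs did not pass the test (0.41, SE 0.16, adjusted p = 0.0796, edgeR interaction term). The third receptor, Ppara, had 0 counts in all 8 libraries.

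**Figure D2:**
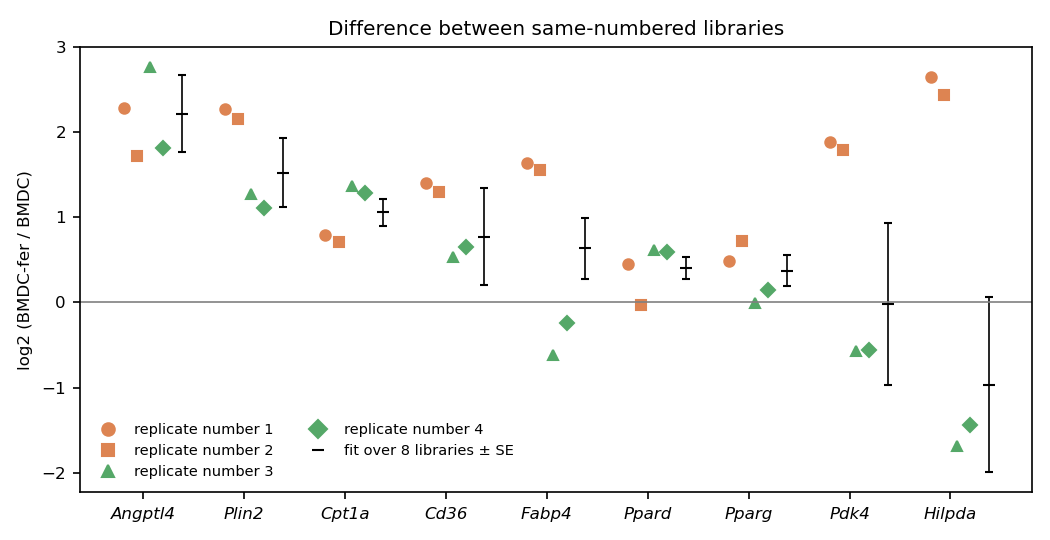
The log2 ratio of CPM (pseudocount 0.05) in BMDC-fer to that in the BMDC library of the same replicate number for the 9 genes, orange for numbers 1 and 2 and green for 3 and 4, with the log2 fold change over all 8 libraries ± SE in black. The 4 ratios of Angptl4, Plin2, Cpt1a and Cd36 are above 0, and those of Hilpda, Fabp4 and Pdk4 are above 0 for numbers 1 and 2 and below 0 for 3 and 4.

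Thus 7 of the 9 genes differed in effect between the pairs, against 37.8% of all tested genes. The BMDC libraries alone also differed. In 6 of the 9 genes BMDC replicates 3 and 4 both lay above BMDC replicates 1 and 2, which was so in 39.3% of all tested genes. The gap between these pairs of BMDC was taken as the difference of the log2 of mean CPM, with the pseudocount of 0.05. It was 4.94 for Hilpda, 3.14 for Pdk4, 2.05 for Cd36, 1.57 for Plin2, 0.99 for Angptl4 and 0.85 for Fabp4. For Cpt1a, Pparg and Ppard it was -0.02, -0.08 and -0.11. Among BMDC-fer the gap between the pairs was 0.82 for Hilpda and 0.55 for Plin2. Fabp4 went the other way there, at -1.18.

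Because Hilpda also responds to HIF, a list of 16 HIF target genes without members of the 9 was read in the same libraries. Of these genes 15 were found in the table and 14 passed the filter. The summed CPM of the list was 1806 to 1891 in BMDC replicates 1 and 2 and 3815 to 4087 in BMDC replicates 3 and 4. In BMDC-fer it was 2049 to 2184 in replicates 1 and 2 and 2756 to 2879 in replicates 3 and 4. Each of the 14 genes was higher in both BMDC replicates 3 and 4 than in replicates 1 and 2, with a median gap of 1.51 on the log2 scale. Over all tested genes 39.3% showed this order. Vegfa, the vascular growth factor, went from 22.9 and 43.4 CPM to 317 and 330 CPM, and Egln3, an oxygen-sensing hydroxylase, from 2.86 and 3.77 CPM to 97.7 and 140 CPM. Between BMDC-fer and BMDC the median log2 fold change of the list was -0.48. It was 0.42 within replicates 1 and 2 and -0.73 within replicates 3 and 4. Of the 14 genes 12 differed in effect between the pairs, beside 37.8% of all tested genes (edgeR interaction term). Ndrg1, a stress-response gene, was the 1 called gene, lower in BMDC-fer (log2 fold change -1.23, SE 0.29, adjusted p = 0.0314, edgeR), and it lost the call in 6 of 8 fits without 1 library, up to an adjusted p of 0.0826 without BMDC-fer replicate 2. In the pairs its values were -0.69 and -1.59 (adjusted p = 0.0219, edgeR interaction term).

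Glucocorticoid targets, which Angptl4 and Pdk4 are also known to share, showed a like gap. The summed CPM of 8 such genes was 215 to 231 in BMDC replicates 1 and 2, 798 to 815 in BMDC replicates 3 and 4, 300.2 to 326 in BMDC-fer replicates 1 and 2 and 587 to 627 in BMDC-fer replicates 3 and 4. Of the 7 that passed the filter 0 were called, and their median log2 fold change was -0.52. The part of either list in the values of Hilpda, Pdk4, Cd36, Plin2 and Angptl4 was not tested.

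**Figure D3:**
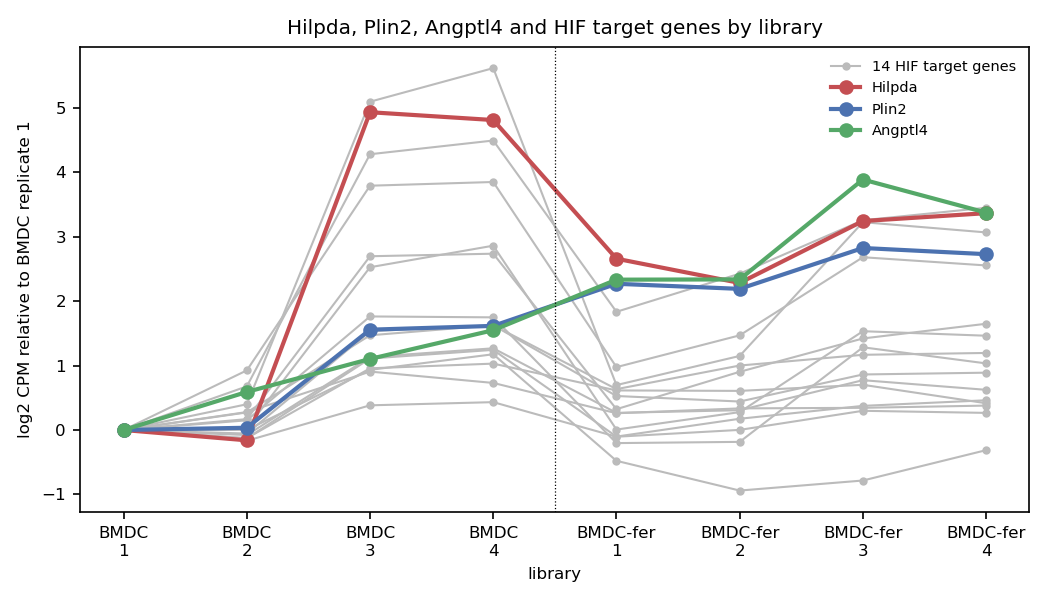
Log2 CPM of Hilpda, Plin2, Angptl4 and the 14 tested HIF target genes in each of the 8 libraries, relative to BMDC replicate 1, with lines joining the values of 1 gene. Hilpda and the HIF targets step up in BMDC replicates 3 and 4, and so do Plin2 and Angptl4, which are highest in BMDC-fer.

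Compared between genes on a scale per exon length (RPKM, over the union of exons), the most abundant of the 9 in BMDC were Plin2 at 120 ± 68.8, Hilpda at 107 ± 116 and Cd36 at 84.7 ± 60.2 (SD, n = 4), in ranges that overlapped. Their order depended on the replicates, since Hilpda was at 7.04 and 6.30 beside 59.8 and 61.3 for Plin2 in BMDC replicates 1 and 2, and at 215 and 198 beside 176 and 183 in BMDC replicates 3 and 4. Fabp4 at 12.3 ± 4.35 and Cpt1a at 9.45 ± 0.445 overlapped as well. Lower came Pparg at 6.69 ± 0.299, Ppard at 4.82 ± 0.572, Angptl4 at 0.666 ± 0.293 and Pdk4 at 0.0877 ± 0.0953. Angptl4, with the largest fold change, was thus among the least abundant of the 9. In BMDC-fer the order per length was Plin2 at 345 ± 75.8, Cd36 at 145 ± 70.4, Hilpda at 54.5 ± 18.1, Cpt1a at 19.7 ± 4.36, Fabp4 at 19.0 ± 8.61, Pparg at 8.66 ± 2.21, Ppard at 6.39 ± 0.780, Angptl4 at 3.10 ± 1.66 and Pdk4 at 0.0853 ± 0.0369 (SD, n = 4). There the ranges of Cpt1a and Fabp4 overlapped, and so did those of Pparg and Ppard.

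The genes most like Angptl4 over the 8 libraries were Lonp2, a peroxisomal protease, Ubxn4, C77080, the lectin receptor gene Clec4a2 and the Wnt receptor gene Fzd1. Their Pearson r with Angptl4 on log2 CPM was 0.994, 0.988, 0.985, 0.981 and 0.981, the highest of 11458 genes averaging 100 counts or more. The 8 points share their 2 groups and their pairs of replicates, so these r are a description. The size of the change was not shared, since Lonp2 went from 43.8 ± 1.37 to 50.1 ± 2.52 CPM and Fzd1 from 1.93 ± 0.755 to 5.73 ± 2.56 CPM (SD, n = 4 each). Among the other 8 genes r with Angptl4 was highest for Cpt1a (0.945) and Plin2 (0.940) and lowest for Pparg (0.197).

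The wider PPAR network was read from 7 lists with 115 further genes, of which 88 passed the filter. Of these, 7 rose and 3 fell in BMDC-fer, 11.4% beside 9.38% of all tested genes. The median log2 fold change of the 88 was 0.05. Receptor partners (10 tested, median -0.03) had 1 gene up and 1 down, 20% beside the same 9.38%. The coactivator gene Ppargc1b rose from 4.32 ± 0.863 to 6.898 ± 0.443 CPM (SD, n = 4 each, log2 fold change 0.68, SE 0.18, adjusted p = 0.0465, edgeR), and its adjusted p was 0.0526 with the replicate block, 0.0968 with library size alone and 0.0843 without the filter. Ncoa2, a coactivator of nuclear receptors, fell from 46.9 ± 2.87 to 26.1 ± 3.84 CPM (log2 fold change -0.85, SE 0.13, adjusted p = 0.00701, edgeR) and was called whichever library was left out. The retinoid X receptor gene Rxra did not pass, at 59.7 and 83.1 CPM (log2 fold change 0.48, SE 0.14, adjusted p = 0.0539, edgeR).

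Fatty acid uptake (13 tested, median 0.46) had 3 genes up and 1 down, 30.8% beside 9.38% of all tested genes. Each of the 3 that rose lost the call in at least 7 of 8 fits with a library left out. The list was chosen with earlier results of these data known, so nothing is read from this share. Olr1, a receptor for oxidized LDL, rose from 19.1 ± 8.56 to 47.8 ± 16.4 CPM (log2 fold change 1.32, SE 0.36, adjusted p = 0.0470, edgeR). The fatty acid transporter gene Slc27a1 rose from 46.2 ± 17.1 to 94.6 ± 24.3 CPM (log2 fold change 1.03, SE 0.29, adjusted p = 0.0497, edgeR). Fabp5, the fatty acid carrier next of kin to Fabp4, rose from 1038 ± 198 to 1739 ± 312 CPM (log2 fold change 0.74, SE 0.19, adjusted p = 0.0390, and 0.0629 with the replicate block, edgeR). The log2 fold change of Fabp5 was 1.16 in replicates 1 and 2, against 0.32 in replicates 3 and 4 (adjusted p = 0.00649, edgeR interaction term). Slc27a3, of the same transporter family as Slc27a1, fell from 5.96 ± 0.557 to 2.69 ± 0.629 CPM (log2 fold change -1.14, SE 0.21, adjusted p = 0.0133, edgeR). Lpl, the lipase that Angptl4 inhibits, was abundant at 2485 and 3429 CPM and was not called (log2 fold change 0.46, SE 0.24, adjusted p = 0.237, edgeR). For Lpl too the pairs differed, with 0.92 in replicates 1 and 2, against 0.14 in replicates 3 and 4 (adjusted p = 0.00368, edgeR interaction term).

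Genes for the oxidation of fatty acids were read next. Of the 20 tested mitochondrial oxidation genes 0 were called (median 0.008), although Acaa2 and Ucp2 had log2 fold changes of 0.49 and 0.52 at adjusted p = 0.0272 and 0.0272 (edgeR), under the 0.58 of the call. Of 13 peroxisomal genes (median 0.24) the fatty acyl transporter gene Abcd3 rose from 30.9 ± 5.51 to 49.9 ± 5.88 CPM (log2 fold change 0.69, SE 0.15, adjusted p = 0.0253, edgeR). Of 11 tested lipid droplet genes besides Plin2 and Hilpda (median 0.13) 0 were called, and with the replicate block the lipase gene Lipe and the ATGL inhibitor gene G0s2 were called lower. That block called 2000 of all 15411 tested genes in either direction. G0s2 held only 8 to 51 counts per library. Lipe was at -1.55 in replicates 1 and 2, against -0.46 in replicates 3 and 4 (adjusted p = 0.0264, edgeR interaction term). Among 8 tested paralogs of the 9 genes (median -0.14) 0 were called, and with the replicate block Angptl2 was called higher (log2 fold change 0.91).

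Other PPAR targets (13 tested, median -0.24) had 2 genes up and 1 down, 23.1% beside 9.38% of all tested genes. Me1, the malic enzyme that makes NADPH, rose from 1.49 ± 0.578 to 5.70 ± 2.11 CPM (log2 fold change 1.93, SE 0.38, adjusted p = 0.0161, edgeR). Its log2 fold change was 1.08 in replicates 1 and 2, against 2.73 in replicates 3 and 4 (adjusted p = 0.0131, edgeR interaction term). Nr1h3, which encodes the oxysterol receptor LXRα, rose from 5.60 ± 1.13 to 15.2 ± 5.64 CPM (log2 fold change 1.44, SE 0.28, adjusted p = 0.0160, edgeR). Cyp27a1, the sterol 27-hydroxylase, fell from 13.5 ± 4.81 to 5.69 ± 0.659 CPM (log2 fold change -1.24, SE 0.26, adjusted p = 0.0204, edgeR). With the replicate block Scd1, a fatty acid desaturase gene, was also called lower (log2 fold change -0.77, adjusted p = 0.00686, edgeR). With 1 library left out, Ncoa2, Slc27a3 and Nr1h3 kept the call in all 8 fits. Me1 lost it without BMDC-fer replicate 4 (adjusted p = 0.0546), and Abcd3 and Cyp27a1 lost it without BMDC-fer replicate 2, 3 or 4, up to 0.0742 and 0.0621 without BMDC-fer replicate 4. Ppargc1b, Olr1 and Fabp5 lost the call in 7 of these 8 fits and Slc27a1 in all 8, up to 0.126, 0.112, 0.0910 and 0.126.

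**Figure D4:**
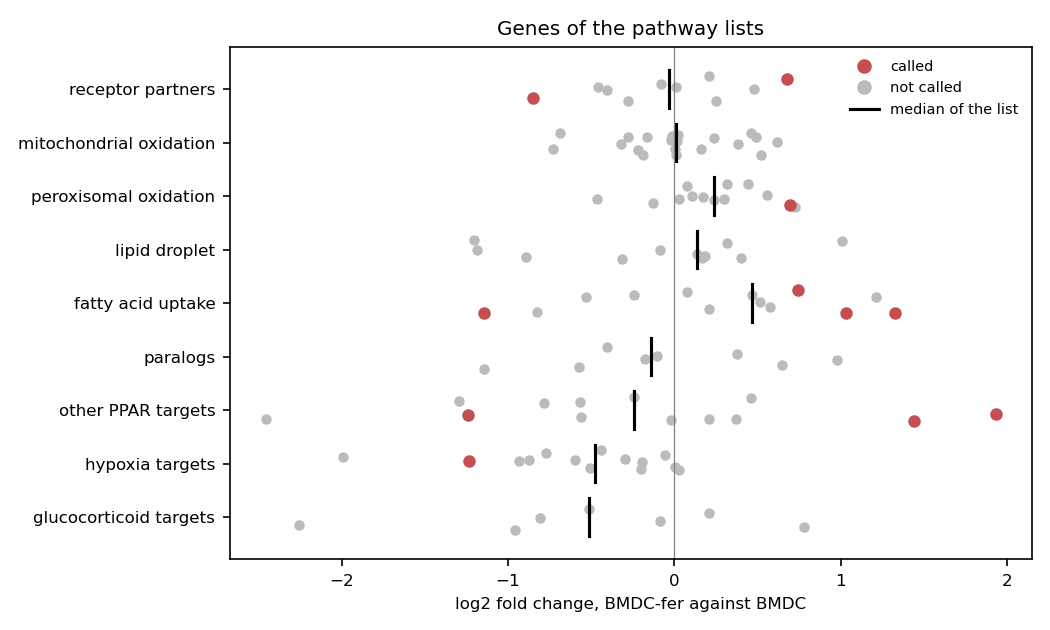
Log2 fold change of BMDC-fer against BMDC for each tested gene of the 7 PPAR lists, the HIF targets and the glucocorticoid targets, 1 point per gene, red where called, with the list median as a bar. The red points lie on both sides of 0, and 3 of them are positive in the fatty acid uptake list.

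Markers of other cells were read beside these genes. Of all tested genes 5.91% were called lower, and with the replicate block 2000 of 15411 were called in either direction. Adipocyte markers summed to at most 0.262 CPM in any library and Lep was at 0 in all of them. The cell source of the Fabp4 and Cd36 reads was not tested. Macrophage markers summed to 2326 to 3436 CPM in BMDC, against 2834 to 4470 CPM in BMDC-fer, with 1 of 10, Adgre1, called lower and 0 called higher. Dendritic cell markers summed to 6622 to 14843 CPM in BMDC, against 3080 to 7248 CPM in BMDC-fer, with 4 of 8, Flt3, Dpp4, Ccr7 and Irf4, called lower. With the replicate block 7 of 8 were called lower, all but Itgax. Neutrophil markers were at 45.2 to 263 CPM and 13.9 to 43.9 CPM, with 5 of 9 called lower, and 9 of 9 with the replicate block. Mast cell and basophil markers were at 33.3 to 65.2 CPM and 14.6 to 33.0 CPM, with 0 of 3 tested called, and 1 of 3 lower with the block. T-cell markers were at 36.6 to 43.9 CPM and 35.7 to 56.8 CPM, most of it from Cd28, at means of 31.8 and 38.8 CPM. Of 4 tested, Lck was called lower, and with the block Cd3g as well. Cd3e was at means of 0.0514 and 0.0519 CPM and Trac at 0.0110 and 0.0120 CPM, and Rag1 was at 0 in all libraries. In bulk libraries fewer cells of a type and less RNA per cell cannot be told apart, and the part of these cell types in the values of the 9 genes was not tested.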

How the data were processed

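Poly(A)-selected RNA of 8 libraries was sequenced. Per the labels and the study's methods, the authors mapped reads with HISAT2, to mm10 in the submitters' processing notes, counted them per gene with featureCounts, and deposited raw counts, which were used without change. The notes also name CASAVA and DESeq2. Neither the annotation, the strandedness nor the treatment of multi-mapping reads is given in the sources used here, so Clec4a2 and other genes with near-identical copies are uncertain. The authors counted on the mouse and the human genome, and only mouse genes were analysed here. The part of reads from human Jurkat cargo in the mouse counts of BMDC-fer was not tested. The groups and the replicate numbers come from the sample labels.

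Of 55487 identifiers, 55141 had a symbol. Positions and exon lengths are from GENCODE M21 (GRCm38, the build of mm10, Ensembl release 96), and start windows from RefSeq (GRCm38.p6). In R 4.3.3, edgeR 4.0.16 with TMM factors and filterByExpr at a count minimum of 10 (0.236 CPM) kept 15411 genes. Over 4 against 4 libraries, the quasi-likelihood F-test was run and p-values were adjusted over all of them (Benjamini-Hochberg). Ratios of CPM use a pseudocount of 0.05. A floor of 3 counts is 0.0607 to 0.0785 CPM. The interaction term compares the effect in replicates 3 and 4 with that in replicates 1 and 2. No replicate pair agreed within sampling noise (chi-square per gene 9.00 to 40.9 within the pairs, 133 to 346 across them).

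Across genes, each library's deviation from its group mean correlated at r = 0.313 to 0.446 between same-numbered libraries of the groups. Libraries of the other number in the same pair gave 0.186 to 0.380, and libraries of the other pair -0.388 to -0.279. Genes are not independent replicates, and no p is given.

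The 9 genes and the gene lists were chosen with earlier results of these data known. Genes named are the 9, up to 3 called genes that rose and 3 that fell per list, and the 5 most like Angptl4. Rxra, Lpl, Acaa2, Ucp2, Lipe, G0s2, Angptl2, Scd1, Vegfa, Egln3 and the marker genes were named after their values were seen. Alternatives were DESeq2 1.42.0, its size factors, library size alone, no filter, the replicate block, each library left out and each pair of replicates alone. Tests were tried on simulated counts first.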

Additional observations from a re-analysis of the deposited data

Results flagged for a closer look

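For 7 of the 9 genes the difference from BMDC was not the same in replicates 3 and 4 as in replicates 1 and 2 (edgeR interaction term, adjusted p of 0.05 or less, over all tested genes). The effect in replicates 3 and 4 minus that in replicates 1 and 2, on the log2 scale, was -4.13 for Hilpda, -3.76 for Pdk4, -2.04 for Fabp4, -1.02 for Plin2, -0.76 for Cd36, -0.54 for Pparg and 0.58 for Cpt1a. The signs were opposite for Hilpda (2.56, SE 0.14, and -1.57, SE 0.12, in replicates 1 and 2 and in 3 and 4) and for Fabp4 (1.60, SE 0.11, and -0.44, SE 0.11). For Pdk4, with 2 and 0 counts in BMDC replicates 1 and 2 and -0.61 (SE 0.50) in replicates 3 and 4, a change of direction is not established. Behind these tests stands the spread between the libraries of a pair, which lay close together. The pairs were seen in the data and are named by no label. No single library stood apart from its group by Dixon's test in the 18 groups of 4 libraries checked for these genes. Where the pairs of replicates lie apart, as for Hilpda in BMDC, this test cannot flag 1 library, so nothing is read from it. The 0.9 groups that chance gives do not allow for such a split.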

How the results depend on the processing

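DESeq2 called 2261 of all genes against 1445 with edgeR, and 3 of the 9 genes in both. Fits that left out 1 library called between 565 and 1440 of all genes, between 1 and 3 of the 9 genes and between 3 and 9 of the PPAR list genes, the lowest each time without BMDC-fer replicate 4. In replicates 1 and 2 alone 3062 of all genes, 7 of the 8 genes tested (Pdk4 was not) and 26 PPAR list genes were called, and in replicates 3 and 4 alone 5604, 6 of 9 and 34, Hilpda among them as lower. With the replicate block the counts were 2000, 4 and 12, with Cd36 added to the 9, and it ended the calls of Ppargc1b and Fabp5 and of no other of the 11 called list genes named. DESeq2's size factors, library size alone and no filter gave 1453, 1479 and 1297 of all genes, and 3 of the 9 genes each, and library size alone and no filter each ended the call of Ppargc1b. Replicates 1 and 2 alone ended that of Ppargc1b and replicates 3 and 4 alone that of Fabp5. The test of a difference between the pairs gave 7 of the 9 genes, and 6 with DESeq2 and 8 without the filter. None of the 11 called list genes named changed direction under these settings. Genes named without a call were not followed, and Vegfa and Egln3 had opposite signs in the pairs. Pdk4, at 0 to 28 counts, is limited by depth.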
